A study of Mus with 8 samples.

Results

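The genes described here encode the nuclear-encoded subunits of the mitochondrial respiratory chain and of ATP synthase, measured in whole mouse tumours. They were chosen by symbol alone, as all genes starting with Ndufa, Ndufb, Ndufc, Ndufs or Ndufv (complex I), Sdha to Sdhd (complex II), Uqcr (complex III), Cox4 to Cox8 (complex IV) or Atp5 (complex V). Of the 22911 genes that the array names through a RefSeq accession, 96 fitted, namely 38 of complex I, 4 of complex II, 8 of complex III, 17 of complex IV and 17 of complex V, and 12 assembly factors whose symbols begin the same way (Ndufaf and Sdhaf). The gene table also held 19 pseudogenes with such symbols, none with a probe here, and 4 further genes without a probe here, Ndufb1, Ndufb4b, Ndufb4c and Cox5b. A probe was tested where it stood well above background on at least 4 of the 8 arrays. By this filter 95 members were tested, 94 of them above background on all 8 arrays and Cox8b on 7, and Cox8c, a testis isoform, was above background on none.

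Pan02, a pancreatic cancer line of the mouse, had been transplanted under the skin, and the tumours were taken after 36 to 40 days. Mutant hosts carried Ext1 flox/flox together with S100a4-Cre on a B6 background (4 tumours), and Control hosts were wild-type B6 mice (4 tumours). Ext1 elongates heparan sulfate chains, S100a4 is expressed by fibroblasts and by other stromal cells, and the transplanted cancer cells carry neither the floxed alleles nor the Cre, so the gene can be lost only in host cells. Each tumour gave 1 array of total RNA labelled with Cy3. The labels do not say whether each tumour came from a mouse of its own, so p-values measure only the spread between these samples, and an exact test of 4 against 4 tumours cannot go below 0.0286.

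The respiratory chain passes electrons from NADH (complex I) and succinate (complex II) through complex III to oxygen at complex IV, and the proton gradient made on the way drives ATP synthase (complex V). Most subunits are encoded in the nucleus and are used by nearly all cells. The subunits encoded in mitochondrial DNA were not among the genes named on the array, so they were not measured here. A few subunits of complex IV exist as pairs of isoforms, of which one is made in most tissues and the other mainly in heart and skeletal muscle, and some further isoforms are known from lung, testis or hypoxic cells.

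Values are on a log2 scale on which 0 is the 75th percentile of the array in question, and differences are Mutant minus Control. Between 61.5% and 67.2% of the 56605 probes stood well above background on an array. Ext1, the targeted gene, read 2.93, 3.00, 3.41 and 3.24 in Mutant 1 to 4, against 3.04, 3.60, 3.64 and 2.02 in Control 1 to 4. It averaged 3.15 ± 0.22 in Mutant and 3.07 ± 0.76 in Control tumours (SD, n = 4 each). Where its probe lies relative to the deleted part is not known here, and since the cancer cells keep the gene it checks neither the deletion nor the labels. Of 7 ductal epithelial markers listed to check the cell type, 6 were tested, among them Krt8, Krt18 and Krt19, and Epcam was above background on no array. The 6 differences were all below 0 (median -0.55). The level of the list, its mean after each gene was centred over the tumours, was -0.52 to -0.13 in Mutant and -0.19 to 0.95 in Control tumours.

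Nuclear-encoded transcripts of the respiratory chain differed little between tumours of Mutant and of Control hosts. The medians of the 5 complexes lay between -0.028 and 0.029. Among the 92 tested members other than the 3 muscle isoforms Cox6a2, Cox7a1 and Cox8b, 46 were above 0 and 46 below, with a median difference of -0.0012, beside a median of 0.010 over all 16068 genes tested. Within 0.2 of zero lay 87 of these 92 members, against 69.5% of all genes. The 95% interval of the difference lay within 0.5 of zero for 72 of them (78.3%) and within 1 for 89, against 41.9% of all genes within 0.5. The median SD within groups was 0.18 for these 92 members and 0.27 for all genes, so these shares do not compare genes of like spread. The far ends of the whole set were 2 muscle isoforms, Cox8b at 3.13 and Cox6a2 at 1.56, and the hypoxia-linked Ndufa4l2 at -1.05.

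No member passed limma's test at an adjusted p under 0.05, where 0% of all 16068 genes did (limma adjusted p = 1.00 for each member). At an unadjusted p under 0.05, 1 member of 95 was higher, Cox8b, beside 1.87% of all genes, and 0 were lower, beside 1.03%. No member was higher at this threshold when Control 4, Mutant 1, Mutant 2 or Mutant 4 was left out. In 0 of 95 members were the groups without overlap, beside 1.41% of all genes. A difference of at least 2-fold was seen in 3 of 95 members, beside 2.79% of all genes, a share near that of all genes.

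**Figure D1:**
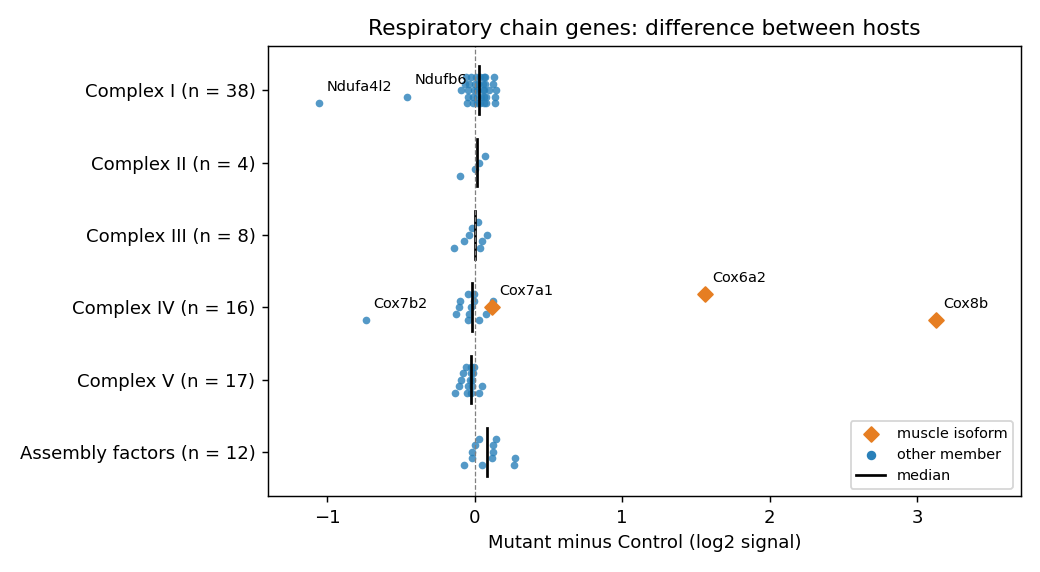
Each point is 1 of the 95 tested genes, placed by its difference in log2 signal between tumours of Mutant and of Control hosts (4 each), and rows are the complexes and the assembly factors. Black bars mark the medians, which lie between -0.028 and 0.081, and the muscle isoforms Cox8b (3.13) and Cox6a2 (1.56) stand far to the right while Cox7a1 (0.12) lies among the others.

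Complex I, which oxidises NADH, had 25 of 38 members above 0 and a median difference of 0.029. Its 7 nuclear-encoded core subunits, which hold the flavin, the iron-sulfur clusters and part of the quinone site, had 3 above 0 and a median of -0.012. The 31 accessory members had 22 above 0 and a median of 0.034. The counts above 0 moved with the scaling, to 29 of 38 by quantile normalization and 20 of 38 by median centring, so no direction is given for the complex.

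The members of complex I with the smallest p on the higher side were Ndufa11, an accessory subunit of the membrane arm, Ndufs4, an accessory subunit of the matrix arm, and Ndufa4. The last is known as a subunit of complex IV. By their names, Ndufa4 and its paralogue Ndufa4l2 are counted among the accessory members of complex I and not in complex IV. Ndufa11 averaged 2.67 ± 0.19 in Mutant and 2.53 ± 0.25 in Control tumours (difference 0.14). Ndufs4 read 4.04, 3.95, 4.12 and 4.03 in Mutant 1 to 4, against 3.97, 3.92, 4.26 and 3.44 in Control 1 to 4. The groups overlapped in Ndufs4, and its difference of 0.14 became -0.015 without Control 4, the lowest tumour.

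On the lower side of complex I, Ndufb6, an accessory subunit of the membrane arm, differed by -0.46 through a single tumour. It read 3.43, 1.73, 3.54 and 3.34 in Mutant 1 to 4, against 3.41, 3.43, 3.69 and 3.33 in Control 1 to 4. Mutant 2 lay far under the other 7 tumours, and without it the difference was -0.033. Ndufv1, the core subunit that binds NADH, averaged 5.19 ± 0.12 in Mutant and 5.28 ± 0.16 in Control tumours, and both of its probes were below 0 (-0.15 and -0.091).

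Complex II, succinate dehydrogenase, has all 4 of its subunits encoded in the nucleus, and all 4 were measured. Sdha, the flavoprotein, differed by 0.032, with a 95% interval of -0.25 to 0.32. Sdhb, the iron-sulfur subunit, differed by 0.070 (-0.18 to 0.32). The membrane anchors Sdhc and Sdhd differed by 0.00045 (-0.34 to 0.34) and -0.098 (-0.36 to 0.16). For each of the 4 subunits the interval excluded a 2-fold difference in either direction.

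Complex III, which moves electrons from ubiquinol to cytochrome c, had 4 of 8 members above 0 and a median difference of 0.0031. The small subunit Uqcrq read 6.52, 6.29, 6.54 and 6.39 in Mutant 1 to 4, against 6.61, 6.33, 7.08 and 6.29 in Control 1 to 4. Control 3 stood above the rest, and its removal turned the difference of -0.14 to 0.025. Uqcrfs1, the Rieske iron-sulfur protein, differed by -0.075, Uqcr11 by -0.036, Uqcr10 by 0.084, Uqcrb by 0.050 and the core protein Uqcrc1 by 0.034.

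In complex V, ATP synthase, 15 of 17 members lay below 0, by small amounts, with a median of -0.028 and a range of -0.14 to 0.050. Beside the probe used for each gene, others reached -0.24 (Atp5b) and 0.079 (Atp5h). All 5 subunits of the catalytic F1 head (Atp5a1, Atp5b, Atp5c1, Atp5d and Atp5e) were among those below 0. This side depended on the scaling, since quantile normalization put 12 of 17 above 0 with a median of 0.037, and the median was 0.025 without Control 1 and 0.022 without Control 3. No direction is therefore given for the complex. Atp5b, the catalytic beta subunit, had the widest difference of the complex. It read 6.90, 6.79, 6.97 and 6.80 in Mutant 1 to 4, against 7.13, 6.89, 7.33 and 6.65 in Control 1 to 4 (difference -0.14, two-sided exact permutation p = 0.40). Its Control tumours spread wider than its Mutant tumours and enclosed all of them. Atp5d, the delta subunit of the head, differed by -0.090 and Atp5g1, one of the 3 genes for the c subunit of the membrane ring, by -0.080. Another gene for the c subunit, Atp5g2, differed by 0.050 and the stalk subunit Atp5o by 0.028.

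Complex IV, cytochrome c oxidase, held the 2 widest differences of the 5 complexes, both in muscle isoforms. Leaving the muscle isoforms aside, 3 of 13 members were above 0 with a median of -0.038, and the widely expressed subunits lay close to 0. Above 0 were 6 of 13 by quantile normalization (median -0.012) and 8 of 13 without Control 3 (median 0.012), so no direction is given here either. Cox4i1, the main form of the subunit IV, averaged 6.14 ± 0.055 in Mutant and 6.24 ± 0.16 in Control tumours (SD, n = 4 each; difference -0.097). Cox6a1 differed by -0.11, Cox7a2 by -0.046, Cox8a by -0.048, Cox6b1 by -0.023 and Cox7b by 0.029. Each of these 6 had a 95% interval within 0.5 of zero, the widest being that of Cox7b from -0.33 to 0.38.

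Assembly factors help to build complexes I and II but are not part of them. Of the 12 measured, 9 were above 0, with a median of 0.081 that was -0.0087 without Control 4. Sdhaf4, a factor for complex II, had the smallest unadjusted p of the group. It read 2.10, 1.81, 2.00 and 1.82 in Mutant 1 to 4, against 1.74, 1.84, 1.67 and 1.41 in Control 1 to 4 (difference 0.27, two-sided exact permutation p = 0.0857, limma adjusted p = 1.00). The groups overlapped by a little, Control 2 lying above Mutant 2 and Mutant 4. Ndufaf4, a factor for complex I, differed by 0.27 with 3 Mutant tumours at 0.54 to 0.55 and Mutant 2 at 0.13, and Control tumours between -0.037 and 0.57. Sdhaf1 differed by 0.11, Ndufaf5 by -0.075, Ndufaf1 by -0.018 and Ndufaf2 by -0.017.

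All 5 complexes lay above 0 in Control 3 and below 0 in Control 4, and the tumours differed more within the Control group than the groups did from each other. A level for each complex was taken as the median of its members, each relative to its own mean over the 8 tumours. The level of all 92 members other than muscle isoforms was 0.097, -0.083, 0.032 and -0.042 in Mutant 1 to 4, against 0.070, -0.098, 0.19 and -0.21 in Control 1 to 4. The complexes did not go together in Mutant 3, where complexes I, II and III were at 0.046, 0.095 and 0.038, and complex IV without its muscle isoforms at -0.019 and complex V at -0.0013. Control 3 was the tumour with the highest value for 48 of the 92 members, and Control 4 that with the lowest for 58. In Control 3, 83 members lay above their own mean and in Control 4, 82 lay below it, while over all genes 55.2% and 42.2% lay above their mean in these tumours. The pattern was not particular to the respiratory chain. The mean centred level of mitochondrial ribosomal proteins was 0.29 in Control 3 and -0.30 in Control 4. For genes of the tricarboxylic acid cycle and pyruvate dehydrogenase it was 0.20 and -0.32, and for assembly factors with other symbols 0.25 and -0.22.

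**Figure D2:**
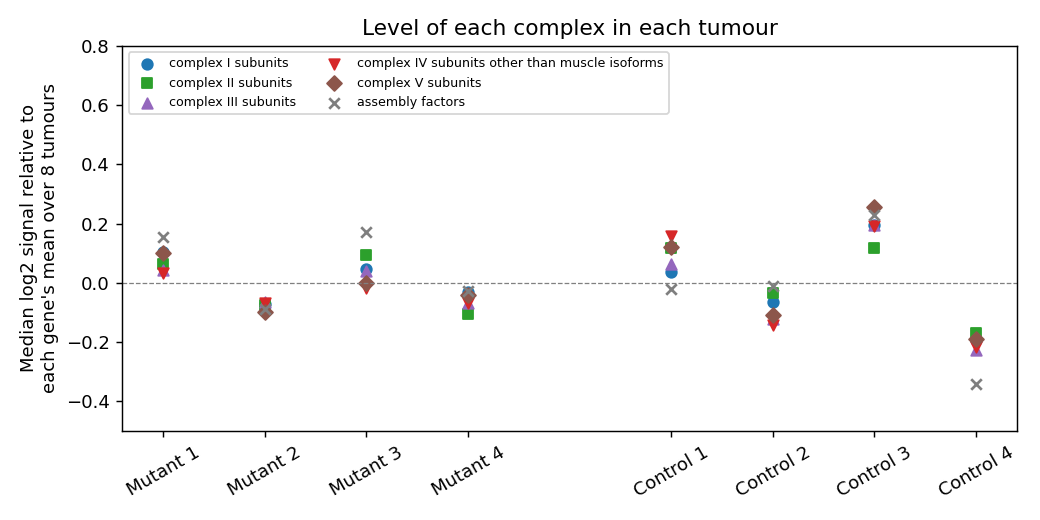
Points give the level of each complex and of the assembly factors in each tumour, as the median log2 signal of its members relative to their own means over the 8 tumours. Every complex is above 0 in Control 3 and below 0 in Control 4, while the groups of genes lie apart within some tumours, as in Mutant 3, where the assembly factors are at 0.17 and complex V is at -0.0013.

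Other measures stood apart in the same Control tumours. All 6 fibroblast markers were above background on all 8 arrays. Their level ran from -0.73 to 0.81 in Mutant tumours and from -1.56 (Control 3) to 1.31 (Control 4) in Control tumours. Control 4 also had the lowest 75th percentile of signal, 575.9 against 665.4 to 740.7 on the other arrays. The part of these measures in the tumour pattern was not tested. The spread between tumours was smaller in the Mutant group for 79 of the 92 members (85.9%, median SD 0.11 in Mutant and 0.22 in Control tumours), and likewise for 79.7% of all genes.

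The muscle isoforms of complex IV did not behave as a set, since 3 of 4 Mutant tumours stood above every Control tumour in Cox8b and Cox6a2 and none did in Cox7a1. Cox8b, the muscle and brown fat form of subunit VIII, read 0.32, 0.99, -2.63 and 0.29 in Mutant 1 to 4, against -2.13, -1.26, -3.69 and -6.45 in Control 1 to 4. Mutant 1, 2 and 4 lay above every Control tumour and Mutant 3 within the Control range, and the probe was not well above background in Control 4. The difference was 3.13, or 8.73-fold, with a standard error of 1.23 and a 95% interval of 0.28 to 5.97 (unadjusted limma p = 0.0350, adjusted p = 1.00; two-sided exact permutation p = 0.0857). It was 2.10 without Control 4 and 1.98 with background correction by normexp. In whole tumours, a difference in the number of cells of a type and one in RNA per cell cannot be told apart.

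Cox6a2, the heart and muscle form of subunit VIa, was also highest in Mutant 2, Mutant 1 and Mutant 4, at a smaller difference. It read 1.13, 2.28, -1.34 and 1.02 in Mutant 1 to 4, against -1.18, -0.10, -0.62 and -1.26 in Control 1 to 4. Mutant 3 was the lowest of all 8 tumours, and the other 3 Mutant tumours lay above every Control tumour. The difference of 1.56 (2.96-fold, standard error 0.71) had a 95% interval from -0.086 to 3.22 and an exact permutation p of 0.143 (two-sided), and it was 1.06 without Mutant 2.

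Cox7a1, the heart and muscle form of subunit VIIa, differed far less. It read 0.61, 0.51, 0.51 and 0.24 in Mutant 1 to 4, against 0.17, 0.087, 0.50 and 0.65 in Control 1 to 4. The groups overlapped, with the highest value in Control 4, and the difference of 0.12 had a 95% interval of -0.25 to 0.48. That interval lies wholly below the difference of 1.56 measured for Cox6a2, but the interval of Cox6a2 reaches into it.

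**Figure D3:**
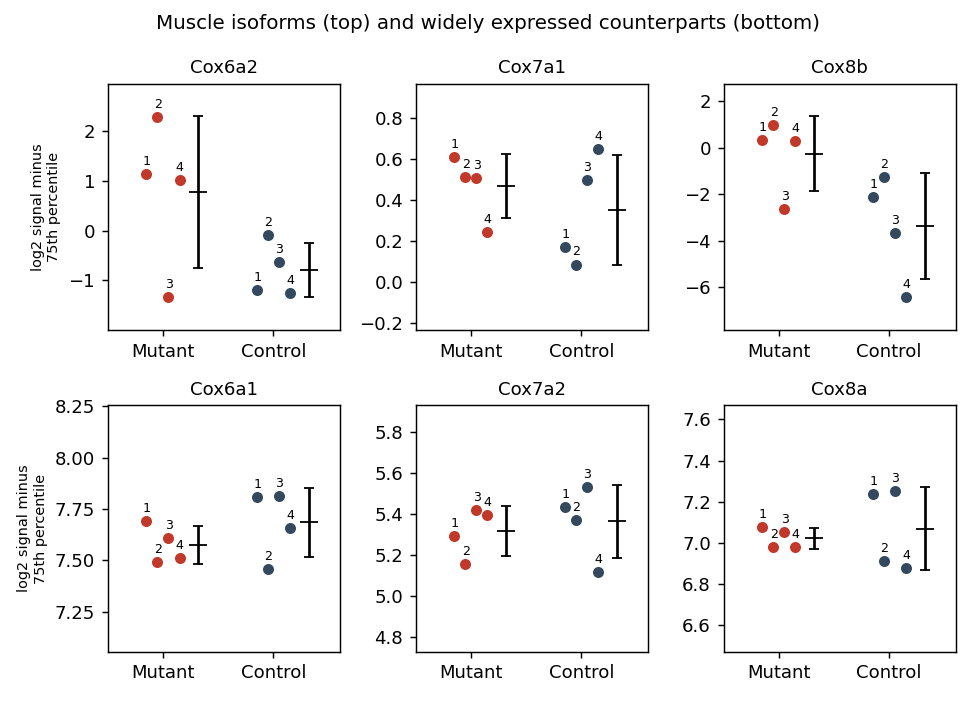
Each panel gives the log2 signal of 1 gene in the 4 Mutant and 4 Control tumours (numbers are the tumours, bars the mean ± SD), with the muscle isoforms Cox6a2, Cox7a1 and Cox8b above and their widely expressed counterparts Cox6a1, Cox7a2 and Cox8a below. Scales differ between panels: Cox6a2 and Cox8b span several log2 units, while each of the other 4 stays within 1.

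The widely expressed counterparts did not follow Cox8b and Cox6a2. Cox8a averaged 7.02 ± 0.051 in Mutant and 7.07 ± 0.20 in Control tumours, and Cox6a1 averaged 7.58 ± 0.093 in Mutant and 7.68 ± 0.17 in Control tumours (SD, n = 4 each). For Cox7a2 the means were 5.32 ± 0.12 in Mutant and 5.36 ± 0.18 in Control tumours. The 95% intervals, -0.33 to 0.23 for Cox8a and -0.38 to 0.16 for Cox6a1, exclude increases of the size measured for their muscle counterparts.

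Levels of skeletal muscle markers ran with those of Cox8b and Cox6a2 across the tumours. All 22 listed markers were tested and all 22 were above 0, with a median difference of 2.26. At an unadjusted p under 0.05, 13 of 22 were higher, beside 1.87% of all genes, and 0 passed the adjusted threshold of limma. Their level was 1.67, 2.59, -0.91 and 1.34 in Mutant 1 to 4, against -0.62, 0.25, -1.67 and -2.65 in Control 1 to 4. Ckm, the muscle creatine kinase, was above background on 3 Mutant and 2 Control arrays, Myh1, Neb and Mb on 4 Mutant and 3 Control arrays, and Myoz1 on 3 Mutant and 4 Control arrays. That the muscle list differs in these data was already known when the isoforms were chosen, and its part in their difference was not tested.

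Across the 8 tumours Cox8b ranked exactly as the muscle marker level did. Pearson's r was 0.97 (exact permutation p = 2.48e-05, the smallest that 8 tumours can give; adjusted over 5 relations 0.000124) and Spearman's rho was 1 (exact permutation p = 4.96e-05, adjusted 0.000248). Without Control 4 and Mutant 2, the tumours farthest from the median marker level, r was 0.996 over 6 tumours (exact permutation p = 0.00139), and after centring within each group it was 0.95. Cox6a2 followed with r = 0.92 (exact permutation p = 0.00186, adjusted 0.00465) and rho = 0.88 (exact permutation p = 0.00724, adjusted 0.0181), and r was 0.89 without the same 2 tumours (exact permutation p = 0.0306). For Cox7a1 r was -0.16 and rho -0.071 (exact permutation p = 0.686 and 0.882, adjusted 0.686 and 0.882), -0.041 without those tumours and -0.54 after centring within groups. With the muscle level as a covariate the difference of Cox8b was -0.058 and that of Cox6a2 -0.11, while that of Cox7a1 was 0.32. The marker level itself differed between the groups, so this fit cannot tell host and muscle level apart and tests no cause.

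**Figure D4:**
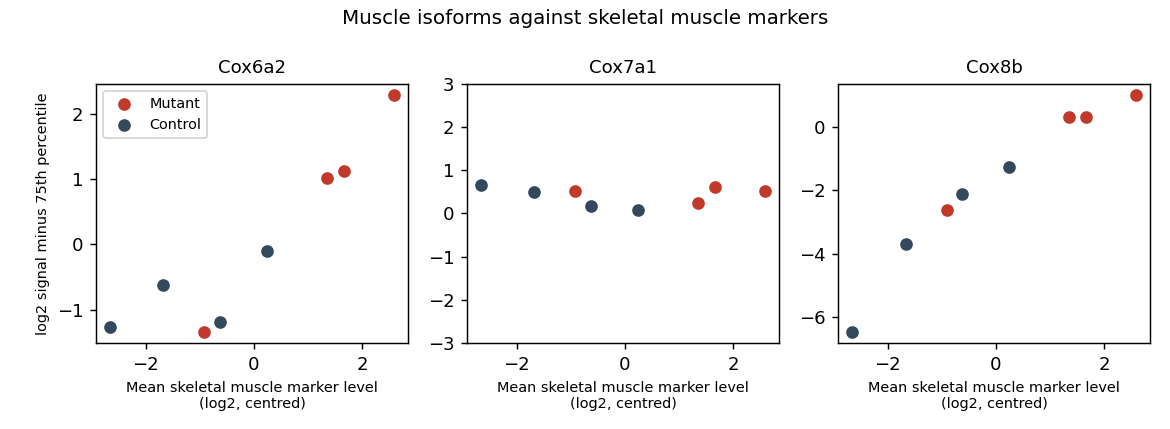
The log2 signal of each muscle isoform is plotted against the mean centred log2 level of 22 skeletal muscle markers in the same tumour, for 4 Mutant and 4 Control tumours. Cox8b and Cox6a2 climb with the marker level (r = 0.97 and 0.92), whereas Cox7a1 runs flat (r = -0.16).

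The arrays lay in 2 rows of 1 slide, each with 2 Mutant and 2 Control tumours. Within the rows the difference of Cox8b was 2.35 and 3.90, that of Cox6a2 2.35 and 0.78, and that of Cox7a1 0.43 and -0.20. The sign was the same in both rows for Cox8b and Cox6a2 and not for Cox7a1.

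Brown fat also makes Cox8b and Cox7a1. Of 6 brown adipocyte markers 4 were tested and 3 were above 0, with a median difference of 0.60. Dio2 differed by 1.86, Cidea by 0.88 (above background on 4 Mutant and 1 Control arrays; limma adjusted p = 1.00, unadjusted p = 0.0254), Prdm16 by 0.33 and Zic1 by -0.73. Ucp1, the defining uncoupling protein, was above background on no array and Elovl3 on 1. The level of the 4 tested markers was -0.68 to 0.78 in Mutant and -1.005 to 1.11 in Control tumours. The value of 1.11 was that of Control 4, and the other Control tumours lay between -1.005 and -0.46. Zic1, which enters this level, was above background on only 3 Mutant and 2 Control arrays, with an SD of 3.90 among Control tumours. Of 6 cardiac markers 4 were tested, with levels of -0.25 to 0.52 in Mutant and -1.02 to 0.48 in Control tumours. Among these 4, Nppb was above background on only 1 Mutant and 3 Control arrays. Tnnt2 differed by 2.26, with an SD of 3.08 among Control tumours, Tnni3 by 0.18, Nppa by 0.055 and Nppb by -0.36. Myh6 and Myl7 were above background on 2 and 3 arrays, too few to be tested. The part of these cells in the difference of the isoforms was not tested.

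Isoforms known from other tissues or from hypoxia varied between tumours, and none of them passed the test. Ndufa4l2, a paralogue of Ndufa4 that hypoxia-inducible factors switch on, read -1.18, 1.72, 0.34 and -2.06 in Mutant 1 to 4, against -0.81, 0.99, -0.13 and 2.99 in Control 1 to 4. The values of both groups ran through each other, with the highest in Control 4 and the lowest in Mutant 4. The difference was -1.05 with a 95% interval of -3.46 to 1.35 (two-sided exact permutation p = 0.40), and -0.31 without Control 4. Its counterpart Ndufa4 differed by 0.12 (-0.23 to 0.47).

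Cox4i2, the form of subunit IV known from lung and from hypoxic cells, read -1.11, -1.09, -1.07 and -1.14 in Mutant 1 to 4, against -0.96, -1.34, -0.77 and -0.84 in Control 1 to 4. Mutant tumours lay close together inside the range of the Control tumours (difference -0.13, 95% interval -0.45 to 0.20). Hypoxia-induced and glycolytic genes were below 0 in 25 of 25 measured cases, beside 7649 of all 16068 genes, with a median difference of -0.55. By limma, 8 of 25 were lower at an unadjusted p under 0.05, beside 1.03% of all genes, and 0 passed the adjusted threshold. Their level was -0.57 to 0.30 in Mutant and -0.0099 to 0.84 in Control tumours. No relation to that level passed: r was 0.21 for Ndufa4l2 (rho 0.33; exact permutation p = 0.626 and 0.428, adjusted 0.686 and 0.535) and 0.45 for Cox4i2 (rho 0.50; exact permutation p = 0.26 and 0.216, adjusted 0.434 and 0.36). Without the 2 tumours farthest from the median hypoxia level r was 0.099 for Ndufa4l2 and -0.072 for Cox4i2 (n = 6, exact permutation p = 0.842 and 0.869).

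The testis isoforms Cox7b2 and Cox6b2 were dim but above background on all 8 arrays. Cox7b2 read -5.04, -4.15, -4.53 and -4.42 in Mutant 1 to 4, against -3.85, -4.64, -4.27 and -2.44 in Control 1 to 4. Control 4 stood above the rest, and the difference of -0.74 was -0.28 without it. Cox6b2 averaged -2.41 ± 0.22 in Mutant and -2.41 ± 0.49 in Control tumours (SD, n = 4 each), while the widely expressed Cox6b1 averaged 2.76 ± 0.085 in Mutant and 2.78 ± 0.25 in Control tumours.

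**Figure D5:**
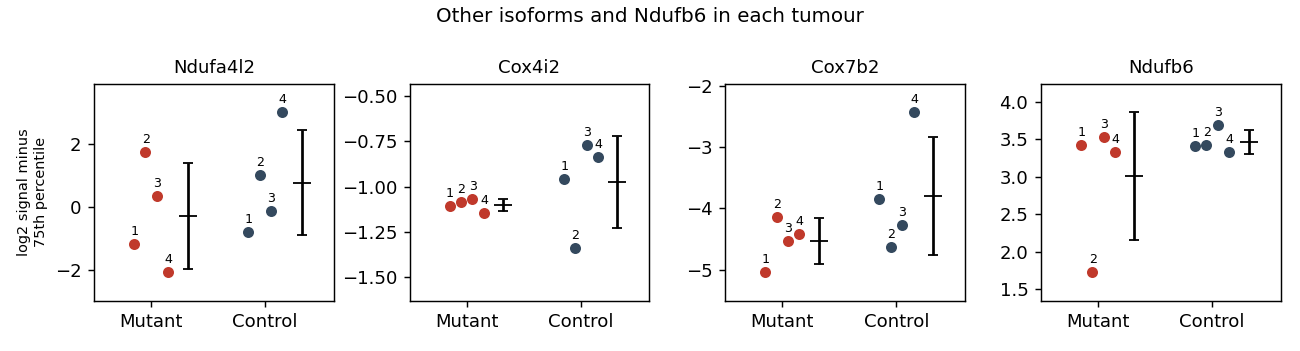
Log2 signal of Ndufa4l2, Cox4i2, Cox7b2 and Ndufb6 in the 4 Mutant and 4 Control tumours, with numbers for the tumours and bars for the mean ± SD, on scales that differ between panels. Control 4 is highest for Ndufa4l2 (2.99) and Cox7b2 (-2.44), Mutant 2 is lowest for Ndufb6 (1.73), and the Mutant tumours lie close together for Cox4i2 (-1.14 to -1.07).

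Lists of mitochondrial genes with symbols outside the rule had medians close to 0, with single genes farther out. None of the members of the lists in this paragraph passed limma's adjusted threshold. Of 78 mitochondrial ribosomal proteins tested, 40 were above 0 (median 0.010), with 0 past an unadjusted p of 0.05 in either direction. Of 17 genes of the tricarboxylic acid cycle and pyruvate dehydrogenase, 10 were above 0 (median 0.036, range -0.086 to 0.12). Of 31 assembly factors with other symbols, 22 were above 0 (median 0.039, range -0.13 to 1.57), and of 15 electron carriers and coenzyme Q genes, 9 (median 0.016). The highest of these assembly factors was Nubpl, which helps to place iron-sulfur clusters in complex I and was above background on 4 Mutant and 3 Control arrays. It averaged 0.50 ± 0.21 in Mutant and -1.07 ± 3.40 in Control tumours (SD, n = 4 each). Cyc1 and Cycs, the cytochromes c1 and c, differed by 0.037 and -0.033. Both belong to the chain, Cyc1 as a subunit of complex III, and are not counted among the members because of their symbols. Coq8a, an atypical kinase of coenzyme Q synthesis that is abundant in muscle, differed by 1.04 (limma adjusted p = 1.00; unadjusted p = 0.0381). Nubpl and Coq8a were chosen for mention after their values were seen.

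Among 17 tested regulators of mitochondrial biogenesis 11 were above 0, with a median of 0.048. Ppargc1a, the coactivator PGC-1alpha, read -1.46, -2.21, -2.62 and -0.55 in Mutant 1 to 4, against -3.39, -3.53, -3.60 and -3.68 in Control 1 to 4. Every Mutant tumour lay above every Control tumour, a difference of 1.84 (limma adjusted p = 1.00; unadjusted p = 0.00222). The separation of the groups in this gene was already known from earlier results of these data. Among other regulators of the list, Esrra differed by -0.060, Nrf1 by 0.048, Gabpa by 0.052, Tfam by -0.045 and the related coactivator Ppargc1b by -0.39, and no relation of any regulator to the subunits was tested.

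For 21 members more than 1 probe was tested. Among these 21, the differences of a gene's probes were a median of 0.045 apart and at most 0.22 (Sdhaf2, -0.076 and 0.14). Cox8b, Cox6a2, Cox7a1, Ndufa4l2, Cox7b2 and Ndufb6 had 1 probe each, so their differences could not be compared between probes. In 5 of the 21 the probes fell on opposite sides of 0, all between -0.076 and 0.14.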

How the data were processed

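Total RNA of 8 tumours was hybridised to 8 one-colour Agilent arrays. The deposited spot intensity (processed signal, background-subtracted) came from Feature Extraction 10.7.3.1 per the file headers, and version 9.1 per the submitters' processing notes. The deposited flags give, per the file headers, whether a spot is well above background, saturated or an outlier. The authors' value table equalled the processed intensity within 0.01% for 99.5% of probes, and column medians ran from 52.4 to 61.2.

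Outlier spots were left out and spots of a probe averaged. From each log2 signal the 75th percentile of its array was subtracted. Probes well above background on at least 4 arrays were kept (36824), named through RefSeq accessions (GRCm38.p6 table; 32994 of 56605 probes matched 1 gene), and the probe of highest mean stood for a gene. limma 3.58.1 (R 4.3.3) compared 4 Mutant with 4 Control tumours over 16068 genes with Benjamini-Hochberg adjustment. It was first run on simulated independent genes with the same SD in both groups. That run does not cover the wider spread of the Control tumours or genes that move together. Exact permutation tests took all 70 arrangements. The number of arrays limits the precision. The scanner files and RefSeq table used here hold no sequences.

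Named genes are the tissue isoforms with their counterparts, complex II, in each complex the 3 of lowest p on either side, and Ppargc1a. The members, lists and rules were chosen with earlier results of these data known. Alternatives covered background correction, scaling, filter, probe choice, the authors' table, variance trend, array weights, blocks, slide rows, the muscle level and leaving out each tumour. Normexp used median spot signals with an offset of 50. Other members are given by counts and ranges.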

Additional observations from a re-analysis of the deposited data

Results flagged for a closer look

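Over the 40 named genes and 8 levels of gene groups, 96 groups of 4 tumours were checked. In 4 of them, 1 tumour lay far from the other 3 by Dixon's criterion, which chance meets in about 1 in 20 groups. Ndufb6 read 1.73 in Mutant 2, against 3.34 to 3.54 in the other Mutant tumours. Ndufaf4 read 0.13 in Mutant 2, against 0.54 to 0.55 in the other Mutant tumours. Atp5o read 6.31 in Mutant 1, against 6.0015 to 6.0415 in the other Mutant tumours. Ndufaf1 read 1.08 in Control 4, against 1.49 to 1.56 in the other Control tumours.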

How the results depend on the processing

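Under every setting run, 0 genes passed limma's adjusted threshold. At an unadjusted p under 0.05, 867 genes were higher and 520 lower with array weights, 1315 and 597 in slide row 1 alone, and 93 and 39 with the muscle level as covariate. Leaving out 1 tumour gave 101 to 525 higher and 94 to 447 lower genes, and 0 to 2 members higher and 0 to 1 lower (1 without Control 2). Members higher numbered 3 with normexp and in row 1, 2 with array weights and with the row block, and 0 in row 2, with the covariate, and with the filter on all 8 arrays, which drops Cox8b. The muscle isoforms' median was -0.058 with the covariate. Sign changes were small apart from a few isoforms, and the cause was not tested. By quantile normalization, Cox7a2 was 0.0034, Cox8a 0.036 and Uqcr11 0.031, and by median centring Sdhc was -0.022. With array weights, Cox6b2 was 0.15, Cox7b -0.041, Sdha -0.077, Sdhc -0.095 and Ndufaf2 0.0083. In row 1, Cox4i2 was 0.052, Cox6b2 0.41, Ndufa4l2 0.18, Sdha -0.033, Sdhc -0.13, Ndufa11 -0.072, Uqcr11 0.030, Ndufaf5 0.10 and Ndufaf2 0.16. In row 2, Cox7a1 was -0.20, Cox7a2 0.084, Cox6b1 0.041, Sdhb -0.0076, Ndufv1 0.025, Uqcrb -0.059, Atp5g2 -0.15, Atp5o -0.077 and Ndufaf1 0.16. With the covariate, Cox6a2 was -0.11, Cox8b -0.058, Cox4i2 0.054, Cox6b2 0.13, Cox7b -0.066, Ndufa4 -0.13 and Ndufb6 0.085. Leaving out 1 tumour turned the sign in Cox7a2 (-0.13 to 0.010), Cox8a (-0.11 to 0.012), Cox6b2 (-0.12 to 0.24), Cox6b1 (-0.13 to 0.056), Cox7b (-0.077 to 0.12), Ndufa4 (-0.0060 to 0.20), Sdha (-0.039 to 0.12), Sdhc (-0.090 to 0.074), Ndufs4 (-0.015 to 0.26), Uqcrc1 (-0.00073 to 0.061) and Uqcrb (-0.035 to 0.18). It also did so in Uqcrq (-0.24 to 0.025), Uqcrfs1 (-0.19 to 0.033), Uqcr11 (-0.097 to 0.014), Atp5g2 (-0.015 to 0.19), Atp5o (-0.043 to 0.12), Atp5g1 (-0.14 to 0.021), Sdhaf1 (-0.0045 to 0.19), Ndufaf5 (-0.16 to 0.060), Ndufaf1 (-0.13 to 0.031) and Ndufaf2 (-0.13 to 0.17). Scaling moved the split of all members from 49 above and 46 below 0 to 68 and 27 (quantile) and 42 and 53 (median centring). Same-numbered tumours did not deviate together (r = 0.078, -0.31, 0.051 and -0.31), 0 of 8 correlated best with their own number, and the replicate block gave 250 higher and 121 lower genes at an unadjusted p under 0.05, with 0 called.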
